A study of Rattus norvegicus with 10 samples.

Results

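Muscle of Sprague Dawley rats from 2 labelled groups, MPS and TZG, was set as 1 pooled group against muscle labelled NC, and the genes that moved alike in every pooled library are described. The pooled group held 5 libraries (MPS 10, MPS 11, TZG 26, TZG 27 and TZG 43) and NC held 4 (NC 4, 5, 6 and 7), which makes 9 of the 10 libraries of the series. MPS is myofascial pain syndrome, in which tight bands within a muscle hurt, and the sample titles call TZG a drug in a series about the herbal preparation Tianhe Zhuifeng liquid extract. The labels explain neither NC nor TZG, do not say whether the TZG rats also had the pain model, and give no muscle, dose, time, age or sex. All 10 libraries were labelled muscle of the same strain. MPS 14 was left out by a measured value, its counts-per-million (CPM) of Acta1, the skeletal muscle actin, which had to reach 10000. That level was 34514 and 39848 CPM in MPS 10 and 11, 41948, 44852 and 46637 CPM in TZG 26, 27 and 43, and between 36666 and 43758 CPM in NC. MPS 14 stood at 2320 CPM, so MPS 10 was the library nearest above the limit. The libraries were thus chosen by these Acta1 values, which are given as a description only.

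Skeletal muscle contracts when myosin pulls on actin in repeating units, the sarcomeres, whose ends are joined at Z-discs. Slow fibres use one set of sarcomere proteins and rely on mitochondria, and fast fibres use another set and break down more glucose. The sarcoplasmic reticulum stores the calcium that starts each contraction, while nerves, vessels, immune cells and connective tissue between the fibres add their own RNA to a muscle sample.

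Total counts ran from 13324242 to 18179144 in the pooled libraries and from 12616160 to 13581646 in NC. Genes of the mitochondrial genome took 18.7% to 38.6% of counts in the pooled libraries, the most in TZG 43, and 18.7% to 30.1% in NC. Scaling by TMM, which aligns libraries on the bulk of their genes, gave factors of 0.728 to 0.992 in the pooled libraries and 1.06 to 1.29 in NC, so the factors of the groups did not overlap. The slow fibre level, a mean of log2 CPM over slow sarcomere genes, was 6.39 and 7.65 in MPS 10 and 11, 2.46, 7.55 and 3.32 in TZG 26, 27 and 43, and 1.52 to 2.32 in NC. All 5 pooled libraries thus stood above all 4 NC libraries in this level, although TZG 26 lay close to NC 6. Nothing in the labels says that the libraries came from separate rats, so each p measures only the spread between these libraries. In bulk muscle, fewer cells of a type and less RNA per cell cannot be told apart.

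Called higher in the pooled libraries were 45 of 69 nuclear genes of the respiratory chain, 22 of 74 ribosomal protein genes, 6 of 24 Z-disc genes and 6 of 22 genes of calcium handling, and called lower were 10 of 39 interferon response genes and 5 of 27 genes of pain signals. Of 12975 genes tested with edgeR, 918 (7.08%) passed a Benjamini-Hochberg adjusted p of 0.05, 643 (4.96%) higher and 275 (2.12%) lower in the pooled libraries. A called gene was taken as shifted alike when all 5 pooled libraries lay on 1 side of all 4 NC libraries in TMM-normalised CPM and the MPS and TZG fold changes differed by less than 1 on the log2 scale. This left 817 genes (6.3% of those tested), 571 higher (4.4%) and 246 lower (1.9%), and 776 of the 817 were protein coding. Of the called genes left out, 86 had overlapping groups and 15 differed too much between MPS and TZG. Without any test, 7.89% of all genes had the pooled libraries above NC with no overlap, and 5.83% had them below.

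The shifts were of moderate size. The median log2 fold change was 0.93 among the 571 higher genes and -0.83 among the 246 lower genes, against 0.01 over all genes tested, and 323 of the 817 reached an absolute log2 fold change of 1. Against the NC mean, the median log2 ratio of the higher genes was 0.91 and 1.04 in MPS 10 and 11 and 1.0, 0.69 and 0.75 in TZG 26, 27 and 43. For the lower genes it was -0.83 and -0.86 in MPS 10 and 11, and -0.75, -0.71 and -0.89 in TZG 26, 27 and 43. The choice of genes fixes the direction of these medians and bears on their size, since a gene had to pass the test with its groups apart: the smallest absolute log2 fold change was 0.49 among the higher genes and the smallest decrease was -0.46 among the lower ones. They are given as a description.

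The calls rested on few libraries. NC 7 was the NC library farthest from the pooled ones in 517 of the 817 genes (63.3%), and without NC 7 the edgeR test called 0 genes, with a smallest adjusted p of 0.0504 and 2582 genes at an unadjusted p under 0.05. On those 8 libraries DESeq2 called 1081 genes and limma-voom 173. The edgeR count was 190 without NC 6, 275 without NC 5, 492 without NC 4, 251 without MPS 11, 513 without MPS 10 and 2041 without TZG 43. With the slow fibre level as a covariate edgeR likewise called 0 genes (smallest adjusted p 0.073, 2235 at an unadjusted p under 0.05), limma-voom called 0 and DESeq2 519, 303 of them among the 817.

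The slow sarcomere genes themselves, set aside here, show what not moving alike looks like. Myh7, the slow myosin heavy chain, had 607.9 and 1181 normalised CPM in MPS 10 and 11 and 0.214, 1343 and 36.8 in TZG 26, 27 and 43, against 0.132, 0.299, 0.288 and 2.69 in NC 4 to 7. TZG 26 thus sat among the NC libraries while 3 of the other pooled libraries were above 600. Tnnt1, slow troponin T, had 0.714 normalised CPM in TZG 26 and 480.7 in TZG 27, against at most 1.67 in NC. Of 12 slow fibre genes tested, 8 were called higher (66.7%, against 4.96% of all genes tested) and 0 were shifted alike. Of 13 fast fibre genes, 4 were called higher (30.8%) and all 4 were shifted alike, against 4.4% of all genes. They were the fast troponins Tnnc2 (log2 fold change 1.02) and Tnni2 (0.87), the calcium buffer Pvalb (1.55) and the Z-disc protein Myoz1 (1.04). Their adjusted p in edgeR lay between 0.0114 and 0.0403. Without scaling factors 1 fast fibre gene was called higher and 0 lower, and the list median was 0.33 in place of 0.70.

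Among genes shifted alike, the largest increase was that of Tceal5, a gene of the transcription elongation factor A-like family on chromosome X (positions 106746701 to 106747303 in the deposited table). It had 7.03 and 12.8 normalised CPM in MPS 10 and 11 and 2.57, 10.4 and 20.2 in TZG 26, 27 and 43, against 0.593, 0.373, 0.231 and 0.459 in NC 4 to 7. The lowest pooled library, TZG 26, was still above every NC library, and the log2 fold change was 4.65 ± 0.59 (standard error, edgeR adjusted p = 0.0114). Its family member Tceal6, also on chromosome X (107323215 to 107323814), had 1.96 and 5.94 normalised CPM in MPS 10 and 11 and 1.64, 2.85 and 7.5 in TZG 26, 27 and 43, against 0 to 0.393 in NC. Its log2 fold change was 4.05 ± 0.72 (edgeR adjusted p = 0.0137), and because the family holds similar copies, the split of reads between the pair is uncertain. The features named Tceal5 and Tceal6 span 603 and 600 bases, equal to their lengths, so they hold no intron. Both stood highest in TZG 43 and lowest in TZG 26 among the pooled libraries. With the slow fibre level as a covariate the log2 fold changes were 4.56 ± 0.75 for Tceal5 and 4.09 ± 0.92 for Tceal6.

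Crhr2, a receptor for the urocortin peptides of the corticotropin-releasing family (chromosome 4, 85286372 to 85329362), came next in size among the genes named here. It had 34.5 and 76.6 normalised CPM in MPS 10 and 11 and 10.9, 107.6 and 86.4 in TZG 26, 27 and 43, against 3.82, 9.11, 1.5 and 1.57 in NC 4 to 7. TZG 26 and NC 5 came near each other without overlapping, and the log2 fold change was 4.0 ± 0.73 (edgeR adjusted p = 0.0139). Cntfr, the binding subunit of the ciliary neurotrophic factor receptor, had 7.85 to 19.6 normalised CPM in the pooled libraries, against 0.983 to 4.28 in NC, a log2 fold change of 2.15 ± 0.40. Nmrk2, a kinase of nicotinamide riboside in muscle, ranged from 49.6 to 315.2 normalised CPM in the pooled libraries, the highest in TZG 43, against 13.6 to 42.7 in NC. Its log2 fold change of 2.18 ± 0.60 passed narrowly (edgeR adjusted p = 0.0495) and was 1.37 without TZG 43.

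**Figure D1:**
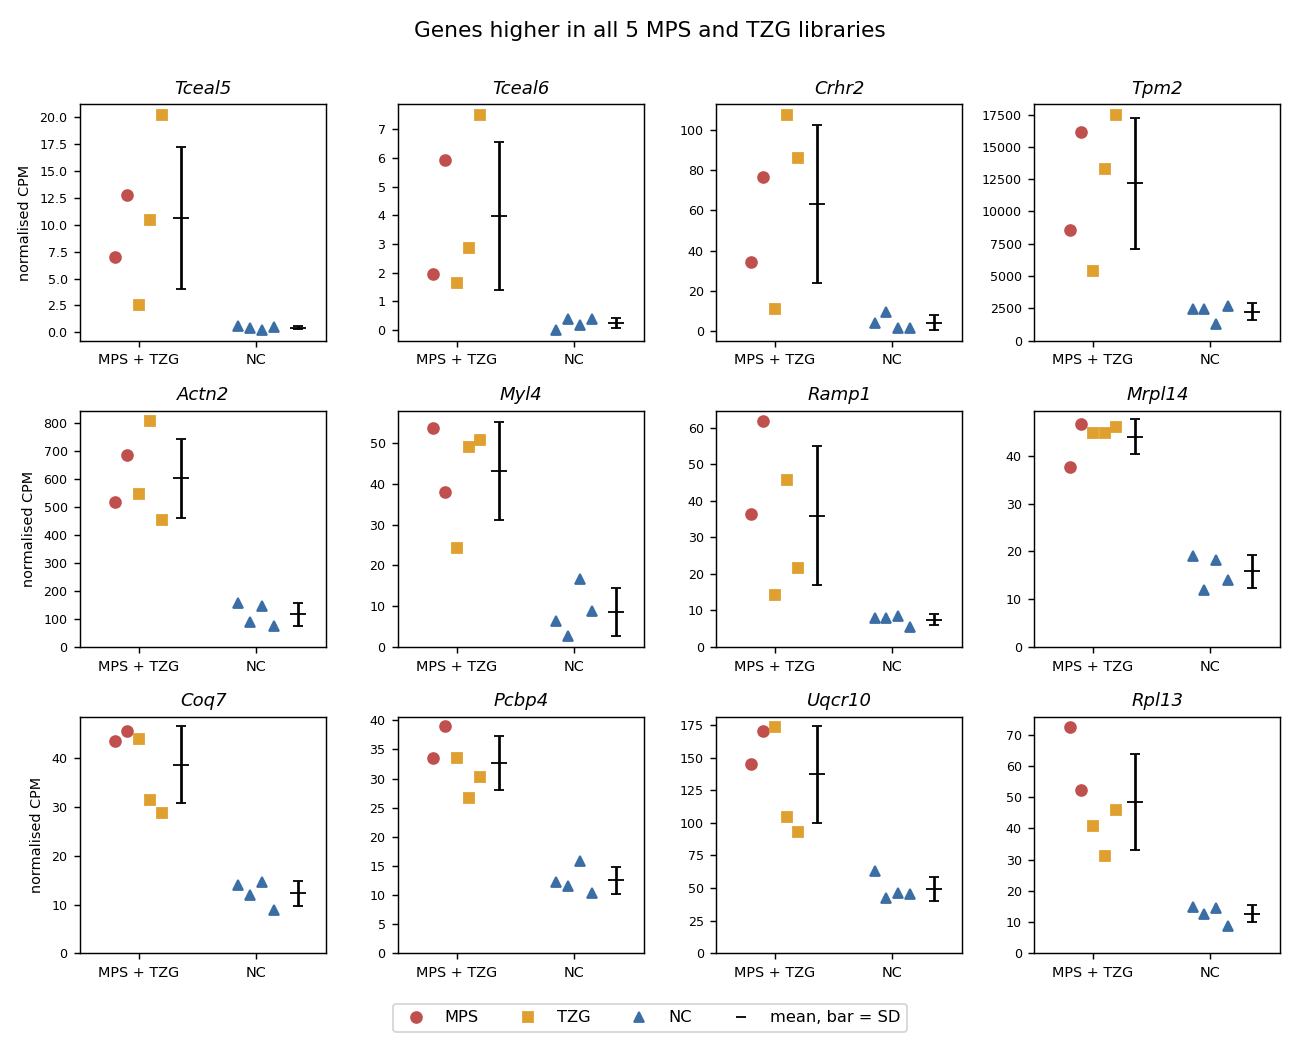
Normalised CPM (vertical axes, linear) of 12 genes that were higher in every pooled library, with MPS as circles, TZG as squares and NC as triangles; the bar beside each group is the mean with its SD. In every panel all 5 pooled libraries lie above all 4 NC libraries, closely grouped for Mrpl14 and widely spread for Crhr2.

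Actn2, the alpha-actinin that crosslinks actin at the Z-disc (chromosome 17, 66304501 to 66397653), combined a large shift with a wide gap between the groups. It had 518.3 and 683.5 normalised CPM in MPS 10 and 11 and 545.8, 805.4 and 454.1 in TZG 26, 27 and 43, against 156.7, 89.2, 146.6 and 73.6 in NC 4 to 7. The lowest pooled library was far above the highest NC library, and the log2 fold change was 2.37 ± 0.28 (edgeR adjusted p = 0.0100). Tpm2, the beta-tropomyosin of the thin filament, had 5425 to 17486 normalised CPM in the pooled libraries, lowest in TZG 26, against 1258 to 2714 in NC, a log2 fold change of 2.46 ± 0.38. Myl4, an essential myosin light chain known from embryonic muscle and the atria, had 24.3 to 53.8 normalised CPM in the pooled libraries, against 2.69 to 16.6 in NC, a log2 fold change of 2.31 ± 0.43. Apobec2, a muscle member of the cytidine deaminase family, had 561.1 to 1975 normalised CPM in the pooled libraries, against 241.4 to 412.9 in NC.

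Of the 24 Z-disc genes tested, 6 were called higher (25%, against 4.96% of all genes tested) and 0 lower, and the median log2 fold change of the list was 0.61; titin and its cap protein, also on the list, matched no name in the table. Besides Actn2 and Myoz1, the genes shifted alike were Ankrd23, a stretch-responsive ankyrin repeat protein (log2 fold change 0.97 ± 0.23), and Pdlim7, a PDZ and LIM domain scaffold (0.82 ± 0.21, chosen after its values were seen). Of 22 calcium handling genes, 6 were called higher (27.3%) and 0 lower, with a median of 0.52. Without scaling factors the balance of the calcium list turned, with 1 called higher, 4 lower and a median of 0.16. The Z-disc list then had 4 higher, 1 lower and a median of 0.18. In that fit 1.5% of all genes tested were called higher and 14.2% lower, with a median of -0.35. Srl, the sarcoplasmic reticulum protein sarcalumenin, had 337.1 and 537.8 normalised CPM in MPS 10 and 11 and 400.2, 424.7 and 601.3 in TZG 26, 27 and 43, against 268.6, 211, 216.1 and 153.7 in NC 4 to 7 (log2 fold change 1.12 ± 0.22, edgeR adjusted p = 0.0168). Stac3, which links the voltage sensor to calcium release, and Jsrp1, a junctional protein of that reticulum, had log2 fold changes of 1.12 ± 0.24 and 1.22 ± 0.26. The histidine-rich calcium binding protein Hrc had 0.96 ± 0.20. Orai1, the store-operated calcium channel, had 0.66 ± 0.17 and was chosen after its values were seen. The Z-disc median was 0.06 and the calcium median 0.28 with the slow fibre level as a covariate.

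The respiratory chain made up the largest block of the higher genes. These nuclear genes encode subunits of the mitochondrial complexes that pass electrons to oxygen and make ATP. Of 69 tested, 45 were called higher (65.2%, against 4.96% of all genes tested) and 0 lower, and 39 were shifted alike. Of the 69 fold changes 68 were positive, with a median of 0.80. The medians were 0.81 for MPS and 0.77 for TZG against NC. The place of TZG 43 depended on scaling. Before TMM factors the summed CPM of the list was 17655 in TZG 43, 26421 to 35186 in the other pooled libraries and 19102 to 24110 in NC. In normalised CPM it was 24245 in TZG 43, against 15859 to 21565 in NC. Uqcr10, a small subunit of complex III (chromosome 14, 84935486 to 84937725), had 145 and 170.2 normalised CPM in MPS 10 and 11 and 173.4, 104.3 and 92.9 in TZG 26, 27 and 43, against 62.9, 42.2, 46.3 and 45.6 in NC 4 to 7. Every pooled library exceeded every NC library, and the log2 fold change was 1.48 ± 0.22 (edgeR adjusted p = 0.0114). Cox5b of complex IV had 442.9 to 870.5 normalised CPM in the pooled libraries, against 193.3 to 314.8 in NC (log2 fold change 1.43 ± 0.24). Ndufb8 and Ndufa13 of complex I had log2 fold changes of 1.35 ± 0.22 and 1.29 ± 0.22. TZG 26 was the highest library for these 4 genes and TZG 27 or TZG 43 the lowest of the pooled ones. With the slow fibre level as a covariate the median of the list was 0.89. Genes encoded on the mitochondrial genome itself gave 0 calls among 13 tested, few genes to judge by where 7.08% of all genes were called. Of these 13 fold changes 12 were positive, with a median of 0.25.

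Calls among other mitochondrial and fuel genes were fewer, and some lists were near the 4.96% of all genes called higher. Coq7, a hydroxylase of coenzyme Q synthesis, had 28.8 to 45.6 normalised CPM in the pooled libraries, against 8.84 to 14.6 in NC (log2 fold change 1.65 ± 0.21, edgeR adjusted p = 0.0114). Mrpl14, a protein of the large mitochondrial ribosomal subunit, had 37.6 and 46.8 normalised CPM in MPS 10 and 11 and 44.8, 44.8 and 46 in TZG 26, 27 and 43, against 19, 11.9, 18.3 and 14 in NC 4 to 7. It was among the genes with the smallest adjusted p (log2 fold change 1.48 ± 0.17, edgeR adjusted p = 0.0100), with the pooled libraries within a narrow band. Etfb, which hands electrons from fatty acid oxidation to the chain, had 111.3 to 236 normalised CPM in the pooled libraries, against 49.3 to 82.3 in NC, a log2 fold change of 1.58 ± 0.24. It was the only call among 22 fatty acid oxidation genes (4.55%). Of 20 citric acid cycle genes, 4 were called higher (20%), among them Dlst (0.95 ± 0.17), which transfers succinyl groups in the cycle, and the pyruvate carrier subunit Mpc2 (0.71 ± 0.18). Of 21 glycolysis and glycogen genes, 2 were called higher (9.52%): Gapdh (1.18 ± 0.21), whose reads may be shared with copies elsewhere in the genome, and the muscle phosphoglycerate mutase Pgam2 (1.07 ± 0.26). Among 26 insulin and growth genes, the glucose transporter Slc2a4 (0.88 ± 0.20), the kinase Akt1 (0.73 ± 0.14) and the nuclear receptor Esrra (1.48 ± 0.27), a regulator of mitochondrial genes, rose, and Prkaa1 (-0.65 ± 0.17), a catalytic subunit of AMP-activated kinase, fell.

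Of 74 cytosolic ribosomal protein genes, 22 were called higher (29.7%, against 4.96% of all genes tested), 0 were called lower, and all 22 were shifted alike; the list median was 0.53. Rpl13 had 72.5 and 52.4 normalised CPM in MPS 10 and 11 and 40.7, 31.3 and 46 in TZG 26, 27 and 43, against 14.8, 12.6, 14.4 and 8.78 in NC 4 to 7 (log2 fold change 1.94 ± 0.25, edgeR adjusted p = 0.0114). Rpl12 had a log2 fold change of 1.5 ± 0.23, Rpl35a 1.25 ± 0.20 and Rpl36a 1.24 ± 0.19. The features named Rpl36a and Rpl35a span 321 and 333 bases, equal to their lengths, so they hold no intron, and ribosomal genes have many near-identical copies among which reads can be split. Pfdn6, a subunit of the prefoldin chaperone for actin and tubulin, had 39.5 to 114.2 normalised CPM in the pooled libraries, against 15.9 to 34.8 in NC.

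**Figure D2:**
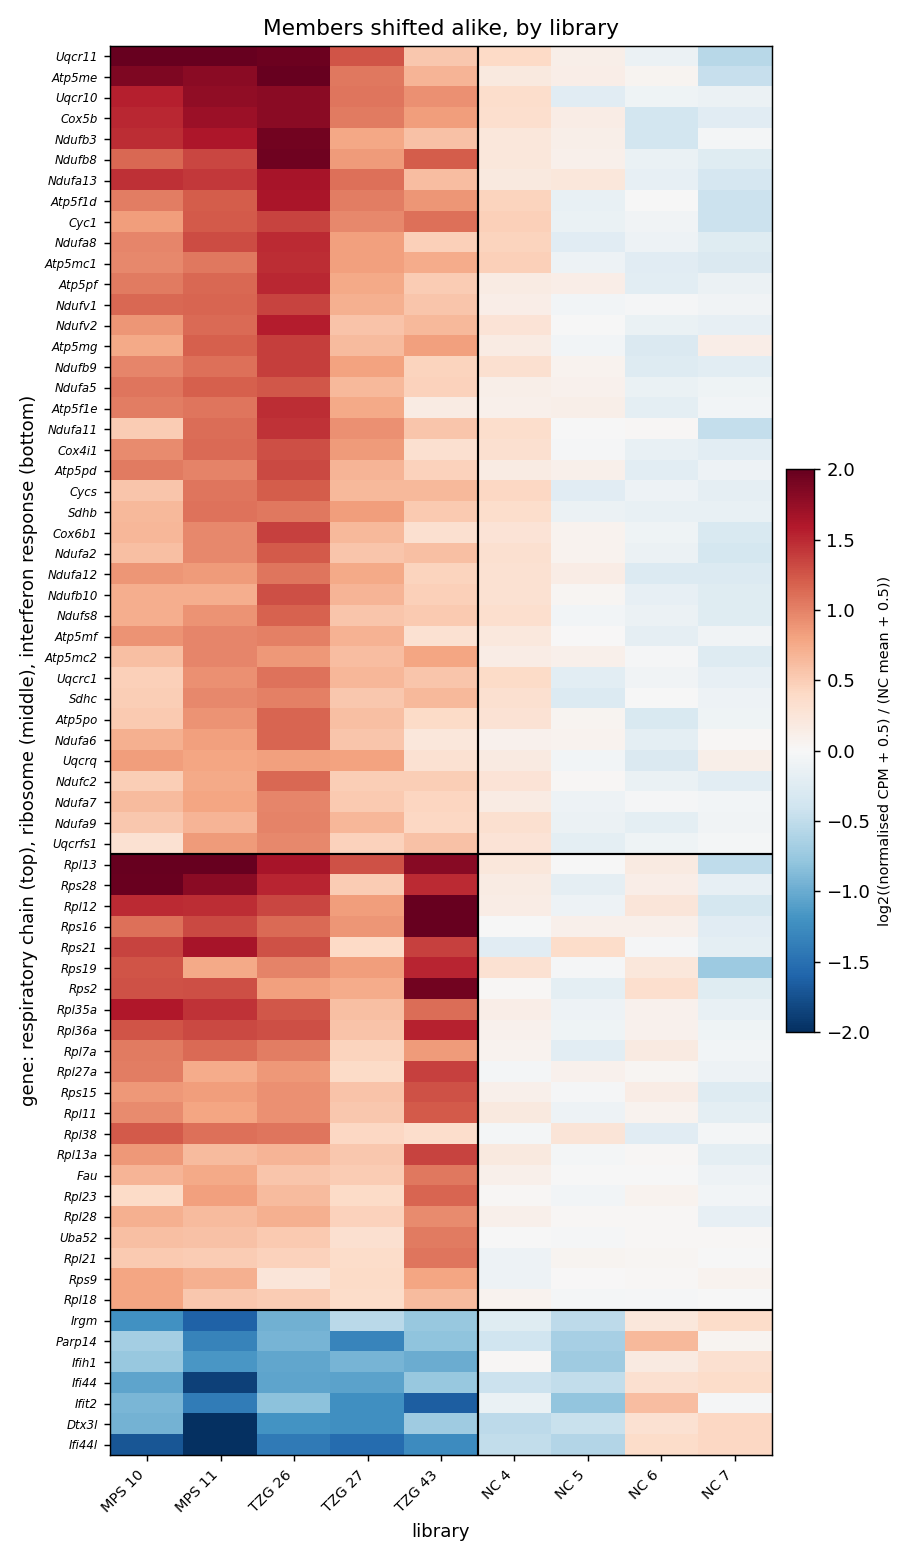
Colour shows the log2 ratio of normalised CPM plus 0.5 to the NC mean plus 0.5, cut at 2 and -2, for the 68 genes of 3 lists that were shifted alike (rows) in each library (columns, MPS and TZG left of NC). Respiratory chain ratios in the pooled libraries ran from 0.16 to 2.10, those of the ribosome from 0.24 to 2.47, and those of the interferon list from -2.28 to -0.53.

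Both the respiratory and the ribosomal genes are short, and the fold changes followed gene length. Across the 12975 genes, fold change and length had a Spearman rho of -0.25, a description across genes that are not independent replicates. Of 488 genes under 500 bases 21.9% were called higher, with a median log2 fold change of 0.43, and of 476 genes of 8000 bases or more 0.84% were, with a median of -0.17. The median length was 1245 bases among the genes higher alike, 3886 among those lower alike and 2487 over all tested. With offsets that remove the relation with length in each library, 587 genes (4.52% of those tested) were called, 408 higher and 179 lower. Of these, 467 were among the 817, and the rho was 0.01. The respiratory list then had 15 calls and a median of 0.53, and the ribosomal list 13 calls and a median of 0.27, all higher. Uqcr10 had a log2 fold change of 1.06 and an adjusted p of 0.0278 in that fit, and Actn2 2.42 and 0.0148. Scaling also mattered: without TMM factors the median of all genes was -0.35, and 194 genes were called higher (1.5%) and 1838 lower (14.2%), 10 of the respiratory and 8 of the ribosomal genes among the higher ones.

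**Figure D3:**
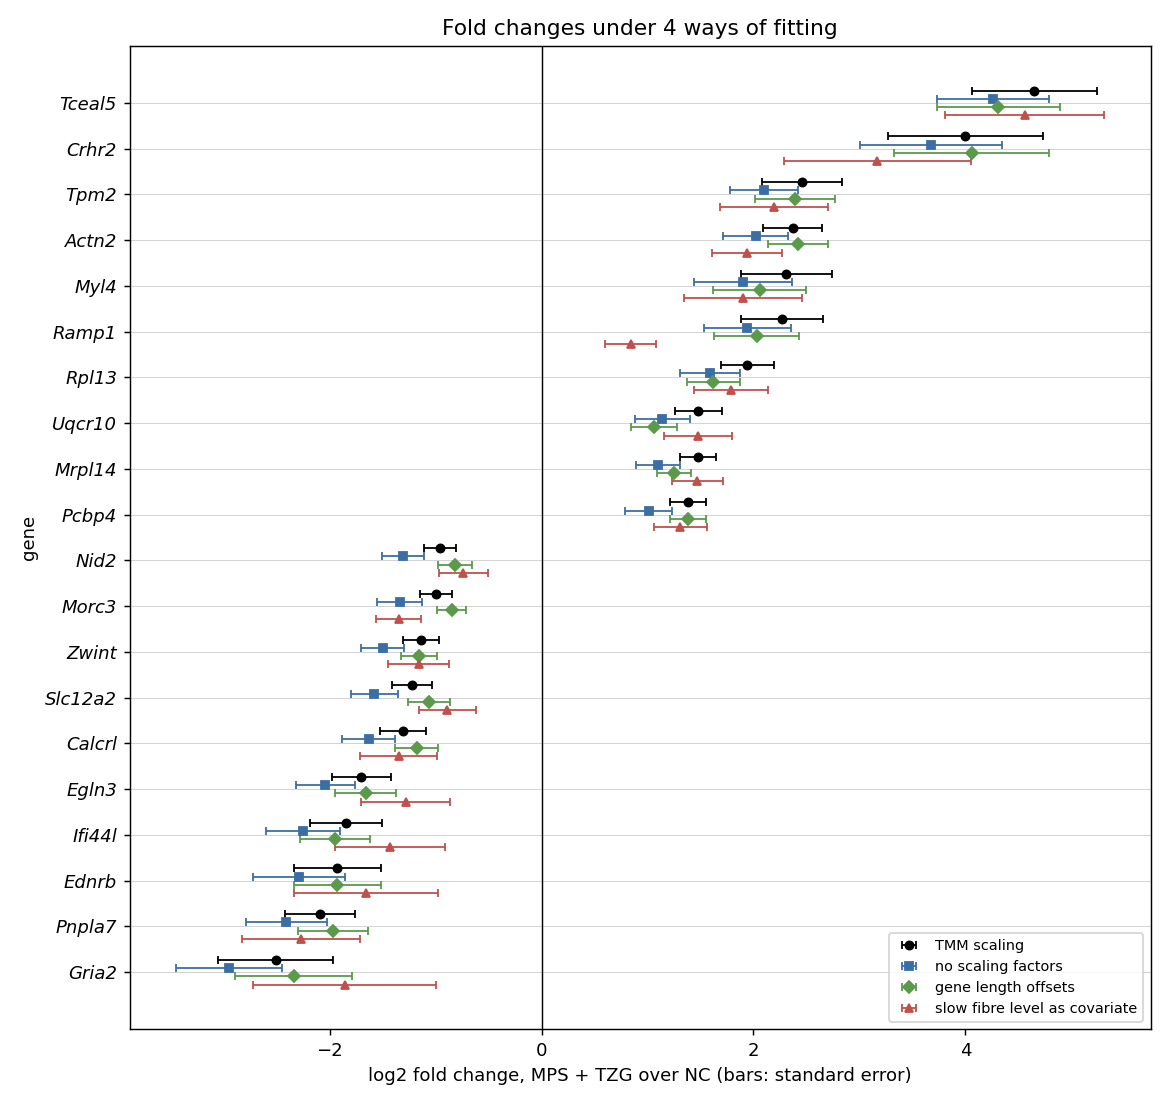
Log2 fold change, pooled over NC, with standard errors for 20 genes (rows) under TMM scaling, no scaling factors, gene length offsets and a covariate for the slow fibre level. Each gene stays on its side of 0 in all 4 fits, and Ramp1 shows the largest gap, 2.27 with TMM scaling and 0.84 with the covariate.

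Some genes of the response to interferon were lower in the pooled libraries. Interferons switch on antiviral genes through a promoter element, the interferon-stimulated response element, whose core is GAAA, any 2 bases, and GAAA again. Of 39 interferon response genes tested, 10 were called lower (25.6%, against 2.12% of all genes tested) and 0 higher, and 38 of the 39 fold changes were negative, with a median of -1.0. Shifted alike were 7: Ifi44l, Ifi44, Ifit2, Ifih1, Irgm, Dtx3l and Parp14, the last 3 named after their values were seen. RefSeq (GRCr8) promoters, 250 bases before to 50 after the start, were matched by name for 6 of them, and the stretch around the first match to that core on either strand is shown, 5′ to 3′ on the gene's strand, to let the shared element be read. Capitals mark the match, which reads TTTC, 2 bases and TTTC where it lies on the other strand.
Ifi44 (chr2:243303837-243303886, minus strand): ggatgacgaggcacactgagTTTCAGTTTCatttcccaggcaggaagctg
Ifi44l (chr2:243328612-243328661, plus strand): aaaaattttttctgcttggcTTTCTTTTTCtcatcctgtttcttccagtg
Ifih1 (chr3:67683998-67684047, minus strand): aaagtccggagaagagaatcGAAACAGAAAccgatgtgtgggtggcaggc
Irgm (chr10:33742583-33742632, minus strand): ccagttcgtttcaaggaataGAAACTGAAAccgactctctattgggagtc
Dtx3l (chr11:78320215-78320264, plus strand): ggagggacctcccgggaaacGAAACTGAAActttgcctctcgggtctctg
Parp14 (chr11:78408038-78408087, plus strand): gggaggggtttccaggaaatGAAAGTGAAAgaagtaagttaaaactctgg

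All 6 promoters held the core, against 257 of 8750 promoters of genes tested (2.94%). The core did not mark the genes that moved, since 16 of the 26 promoters of interferon list genes not shifted alike held it too (61.5%). It stood in 7 of 174 promoters (4.02%) of the other genes lower alike and in 8 of 368 (2.17%) of the genes higher alike. It was picked out of 18 patterns searched on both strands; the others were AAGGTCA of nuclear receptors and its longer form TNAAGGTCA, TTCCGG of ETS factors and its longer form ACTTCCGG, TGACGTCA of CREB, CACGTG of basic helix-loop-helix factors, within the wider CANNTG of the E-box, TATAAA of the TATA box, GGGCGG of SP1, CCAAT of NF-Y, AATGGCGG of YY1, the palindrome-bearing CTCGCGAGA, the pyrimidine runs CTTTTC and, longer, CCTTTTTC, the related run CTTTCC, and the NRF1 and MEF2 sites. AAGGTCA, the site read by Esrra and its relatives and also picked after the counts were seen, stood in 8 of 61 respiratory chain promoters (13.1%), against 228 of 8750 (2.61%). It was in 3 of 34 promoters (8.82%) of the respiratory genes shifted alike and in 5 of 27 (18.5%) of the others. A match is a description of letters and not a site in use.

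Ifi44l, an interferon-induced gene with no settled role, had 1.59 and 0.961 normalised CPM in MPS 10 and 11 and 2.07, 1.85 and 2.34 in TZG 26, 27 and 43, against 4.35, 4.03, 8.3 and 8.58 in NC 4 to 7. Its log2 fold change was -1.85 ± 0.34 (edgeR adjusted p = 0.0138), and NC 6 and NC 7 stood above the other NC libraries. Ifit2, which binds viral RNA, had 32.7 and 23.1 normalised CPM in MPS 10 and 11 and 34.6, 26.2 and 19.4 in TZG 26, 27 and 43, against 56.4, 35.6, 94.6 and 60.6 in NC 4 to 7 (log2 fold change -1.18 ± 0.26). TZG 26 and NC 5 were nearly level. Ifih1, a sensor of viral double-stranded RNA, had a log2 fold change of -1.04 ± 0.23 and Ifi44 of -1.15 ± 0.26. The list's summed level was 616.1 to 827 normalised CPM in the pooled libraries and 657.2 to 1627 in NC, highest in NC 6. Samd9, an antiviral gene outside the list, had 3.12 to 7.5 normalised CPM in the pooled libraries, against 10.6 to 28.9 in NC (log2 fold change -1.73 ± 0.34). Macrophage markers gave 0 calls among 22 tested, but 18 of the 22 fold changes were negative, the median was -0.68, and their median was -1.66 in MPS and -0.19 in TZG. Their summed level was 187.7 and 179.5 normalised CPM in MPS 10 and 11 and 354, 163.6 and 826.7 in TZG 26, 27 and 43, against 394.5 to 699.6 in NC, so TZG 43 lay above every NC library and the other 4 pooled libraries below. Lymphocyte markers summed to 13.2 to 69.8 normalised CPM in the pooled libraries, highest in TZG 43, and 28.4 to 49.9 in NC, with Glycam1 at 0 in all 9. Their part in the interferon values was not tested.

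Among 27 mediators and receptors of pain, 5 were called lower (18.5%, against 2.12% of all genes tested) and 1 higher (3.7%, against 4.96%), and the median was -0.46. Both parts of the receptor for calcitonin gene-related peptide, a peptide of pain-sensing nerves, were called, and they moved in opposite directions. Ramp1, the partner protein that gives the receptor its specificity (chromosome 9, 98313632 to 98364205), had 36.4 and 61.8 normalised CPM in MPS 10 and 11 and 14.2, 45.7 and 21.6 in TZG 26, 27 and 43, against 8.03, 7.91, 8.53 and 5.37 in NC 4 to 7. Its log2 fold change was 2.27 ± 0.39 (edgeR adjusted p = 0.0132). Its high libraries MPS 11, TZG 27 and MPS 10 were also those with the highest slow fibre level, and with that level as a covariate it was 0.84 ± 0.24. Calcrl, the membrane receptor itself (chromosome 3, 71747956 to 71845232), had 24 and 14.6 normalised CPM in MPS 10 and 11 and 22.6, 29.8 and 18.2 in TZG 26, 27 and 43, against 49.4, 57.6, 41 and 68.5 in NC 4 to 7. Its log2 fold change was -1.31 ± 0.22 (edgeR adjusted p = 0.0129), and -1.35 ± 0.36 with the covariate.

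Both receptors for endothelin, a peptide that narrows vessels and sensitises nerves, were lower as well. Ednrb (chromosome 15, 88006977 to 88036354) had 2.26 and 0.42 normalised CPM in MPS 10 and 11 and 1.57, 1.62 and 1.56 in TZG 26, 27 and 43, against 4.02, 4.03, 6.69 and 7.93 in NC 4 to 7 (log2 fold change -1.93 ± 0.41, edgeR adjusted p = 0.0213). Ednra, chosen after its values were seen, had 5.85 to 13.5 normalised CPM in the pooled libraries, against 14.9 to 21.8 in NC (log2 fold change -1.0 ± 0.25). Plaa, known as phospholipase A2-activating protein, had a log2 fold change of -0.99 ± 0.23. Endothelial markers gave 0 calls among 17 tested and a median of -0.15, with a summed level of 985.7 normalised CPM in TZG 43, 2767 to 4815 in the other pooled libraries and 2839 to 4127 in NC, and pericyte and smooth muscle markers gave 0 calls among 15 and a median of 0.02. Their part in the receptor values was not tested.

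Among named genes with a mean of at least 1 CPM the largest decrease was that of Gria2, a subunit of the AMPA type of glutamate receptor, which had 0.305 and 0.54 normalised CPM in MPS 10 and 11 and 0.214, 0.385 and 1.75 in TZG 26, 27 and 43, against 3.03, 2.31, 4.15 and 4.52 in NC 4 to 7. The level was low throughout and TZG 43 stood apart from the other pooled libraries, and the log2 fold change was -2.51 ± 0.54 (edgeR adjusted p = 0.0235). Gria3, another subunit, had 0.39 to 1.2 normalised CPM in the pooled libraries, against 2.13 to 4.03 in NC (-1.61 ± 0.38), and Cntn1, a neural adhesion protein, had 0.642 to 2.81, against 2.83 to 5.11 in NC (-1.55 ± 0.40). Markers of Schwann cells and nerve gave 0 calls among 14 tested, with a median of 0.54 (1.02 in MPS and 0.10 in TZG). Their summed level was 846.5 and 603.5 normalised CPM in MPS 10 and 11 and 99.9, 138 and 418.5 in TZG 26, 27 and 43, against 96.8 to 264 in NC, so both MPS libraries and TZG 43 stood above NC. Their part in these values was not tested.

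Pnpla7, a lysophospholipase, had 68.9 and 38 normalised CPM in MPS 10 and 11 and 54.5, 45.5 and 18.3 in TZG 26, 27 and 43, against 161.2, 130.7, 215.2 and 260.4 in NC 4 to 7, a log2 fold change of -2.09 ± 0.33 (edgeR adjusted p = 0.0115). The groups were separated by a wide gap. Egln3, a prolyl hydroxylase of the oxygen-sensing pathway (chromosome 6, 75050329 to 75075795), had 70.4 and 77.4 normalised CPM in MPS 10 and 11 and 103.3, 40.9 and 59.1 in TZG 26, 27 and 43, against 208.2, 214.1, 150.4 and 340.2 in NC 4 to 7, a log2 fold change of -1.70 ± 0.28 (edgeR adjusted p = 0.0129). Hif1a, the oxygen-regulated factor that such enzymes mark for breakdown, had a log2 fold change of -0.70 ± 0.19 and passed narrowly (edgeR adjusted p = 0.0494). Its highest pooled value was 27.8 normalised CPM and its lowest NC value 28.6. The call held in 1 of the 9 fits that left out 1 library. Higd1a, a hypoxia-inducible mitochondrial protein, had a log2 fold change of 1.36 ± 0.21. Of 16 hypoxia genes, 1 was thus called higher (6.25%, against 4.96% of all genes tested) and 2 lower (12.5%, against 2.12%). Slc25a27, a mitochondrial carrier, had 1.38 to 1.85 normalised CPM in the pooled libraries, against 3.1 to 5.9 in NC.

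Slc12a2, the sodium, potassium and chloride cotransporter, had 66.5 and 58.2 normalised CPM in MPS 10 and 11 and 96.4, 64.9 and 62.9 in TZG 26, 27 and 43, against 140.9, 148.2, 147.6 and 215 in NC 4 to 7 (log2 fold change -1.22 ± 0.19, edgeR adjusted p = 0.0114). TZG 26 and NC 7 were the highest of their groups. Morc3, a nuclear ATPase, had 19.5 to 28.5 normalised CPM in the pooled libraries, against 44.3 to 52.3 in NC (-1.0 ± 0.15). Zwint, a kinetochore protein, had 24.6 to 30.5 normalised CPM in the pooled libraries, against 46.6 to 82.6 in NC (-1.14 ± 0.17). These 3 genes and Nid2 were among the lower genes with the smallest p. The zinc transporter Slc39a10 had 3.36 to 4.23 normalised CPM in the pooled libraries, against 5.66, 7.62 and 7.72 in NC 4, 5 and 6 and 34.1 in NC 7, and its log2 fold change of -1.85 was -0.89 without NC 7.

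**Figure D4:**
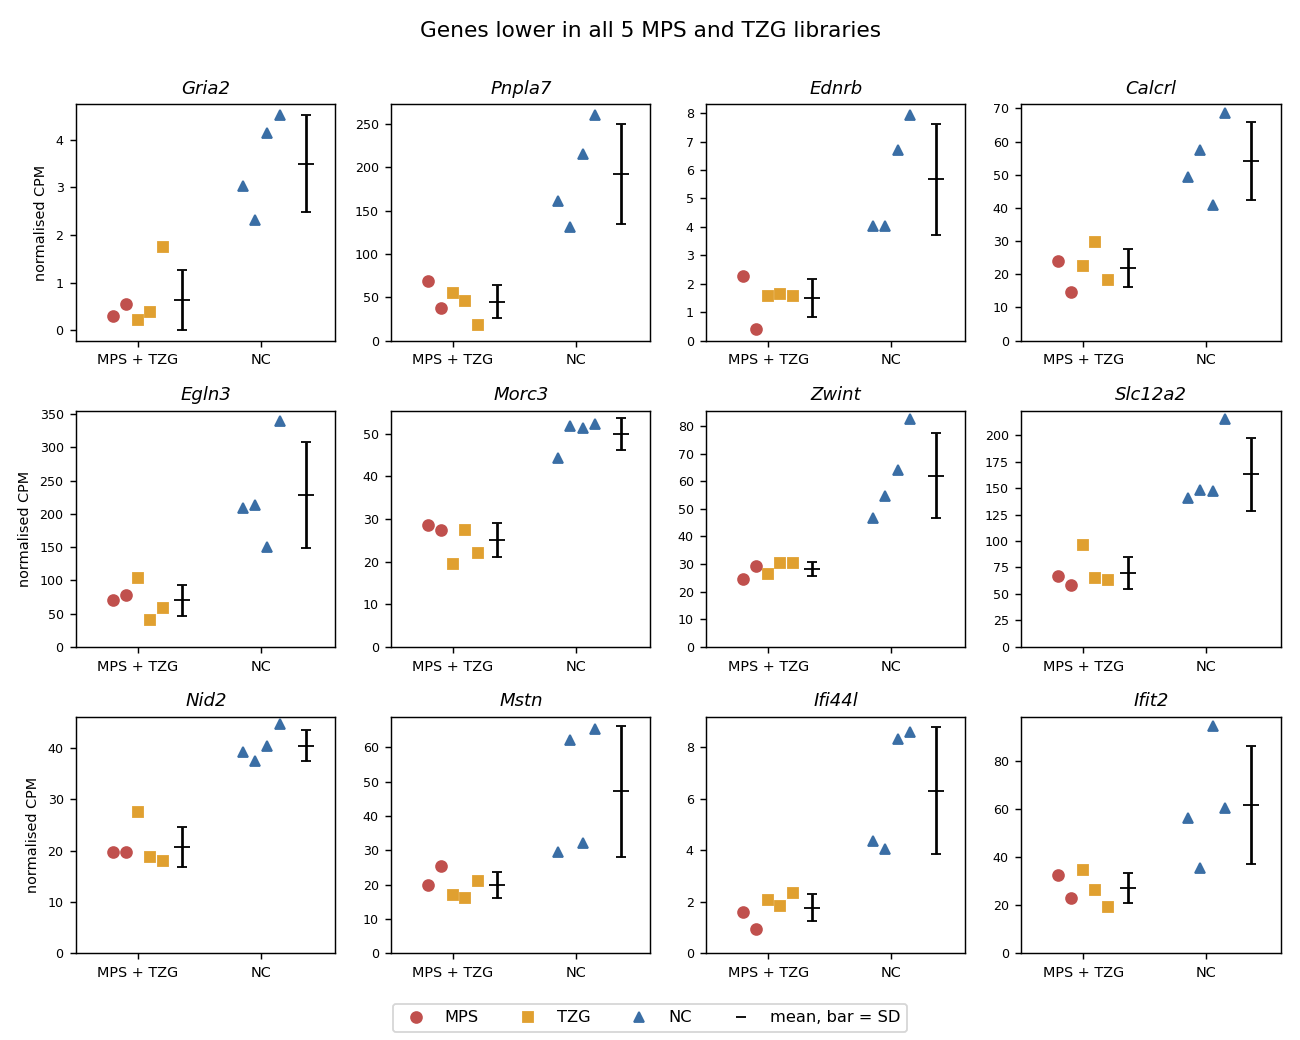
Normalised CPM (vertical axes, linear) of 12 genes that were lower in every pooled library, with MPS as circles, TZG as squares and NC as triangles; the bar beside each group is the mean with its SD. All 5 pooled libraries lie below all 4 NC libraries in each panel, and NC 7, the rightmost triangle, is the highest in most of them.

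Of 42 matrix genes, 4 were called lower (9.52%, against 2.12% of all genes tested) and 0 higher. The median was -0.13, with -0.59 in MPS and 0.02 in TZG. Markers of fibroblasts and progenitors had a median of -0.34, with -0.90 in MPS and -0.09 in TZG, and 1 of 19 was called, the matrix protein Smoc2 (-0.97 ± 0.25, overlapping groups). Their summed level was 1126 and 1217 normalised CPM in MPS 10 and 11 and 1828, 1932 and 2781 in TZG 26, 27 and 43, against 1893 to 2876 in NC. Both MPS libraries lay below NC and the TZG libraries mostly within its range, and the part of these cells in the matrix values was not tested. Nid2, a basement membrane linker, had 19.7 and 19.8 normalised CPM in MPS 10 and 11 and 27.6, 18.8 and 18 in TZG 26, 27 and 43, against 39.2, 37.5, 40.3 and 44.6 in NC 4 to 7 (log2 fold change -0.96 ± 0.15, edgeR adjusted p = 0.0119). Timp1, an inhibitor of matrix proteases, had 4.19 to 8.39 normalised CPM in the pooled libraries, against 9.17 to 39 in NC, where NC 6 was highest (-1.46 ± 0.40, edgeR adjusted p = 0.0494). Without NC 6 it was -0.84, and the call held in 2 of the 9 fits that left out 1 library. Of 33 genes of TGF-beta and myostatin signalling, 3 were called lower (9.09%) and 2 higher (6.06%, near the 4.96% of all genes tested). Mstn, the muscle growth inhibitor myostatin, had 19.9 and 25.5 normalised CPM in MPS 10 and 11 and 16.9, 16 and 21 in TZG 26, 27 and 43, against 29.4, 62, 32.2 and 65.3 in NC 4 to 7 (-1.25 ± 0.26, edgeR adjusted p = 0.0196). Ltbp1, which stores latent TGF-beta in the matrix, had -1.06 ± 0.25, and the co-receptor Tgfbr3, chosen after its values were seen, -0.78 ± 0.20. Pmepa1, a target and brake of that pathway, was the largest call of the list at 2.44 ± 0.44, higher in all 5 pooled libraries but by 1.06 more in MPS than in TZG.

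The lists of atrophy and protein breakdown and of the ubiquitin system had calls in both directions, those higher near the 4.96% of all genes tested. In the list of atrophy and protein breakdown, 1 of 22 was called higher (4.55%) and 3 lower (13.6%, against 2.12%). Map1lc3b and Map1lc3a, a pair of autophagosome proteins, moved in opposite directions. Map1lc3b had 58.3 to 114.9 normalised CPM in the pooled libraries, against 137.9 to 364.5 in NC (-1.36 ± 0.30), and Map1lc3a had 132.4 to 213, against 85 to 113.6 in NC (0.82 ± 0.17). Of 29 genes of the ubiquitin system 2 were called higher (6.9%) and 3 lower (10.3%): the ligase Stub1 rose (0.59 ± 0.13), and the muscle ligase subunit Asb5 (-1.11 ± 0.22) and the conjugating enzyme Ube2g1 (-1.14 ± 0.23) fell. Proteasome subunits gave 0 calls among 30. Of 20 genes of the unfolded protein response 2 were called lower (10%, against 2.12%), the chaperone partners Dnajb9 (-0.71 ± 0.19) and Dnajc3 (-0.63 ± 0.16). Among 24 antioxidant genes 4 were called higher (16.7%, against 4.96%) and 1 lower (4.17%, against 2.12%). Those higher included the lipid peroxidase Gpx4 (0.58 ± 0.13) and the glutathione transferase Gsta4 (1.56 ± 0.41). The gene called lower was catalase, Cat (-0.76 ± 0.17).

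**Figure D5:**
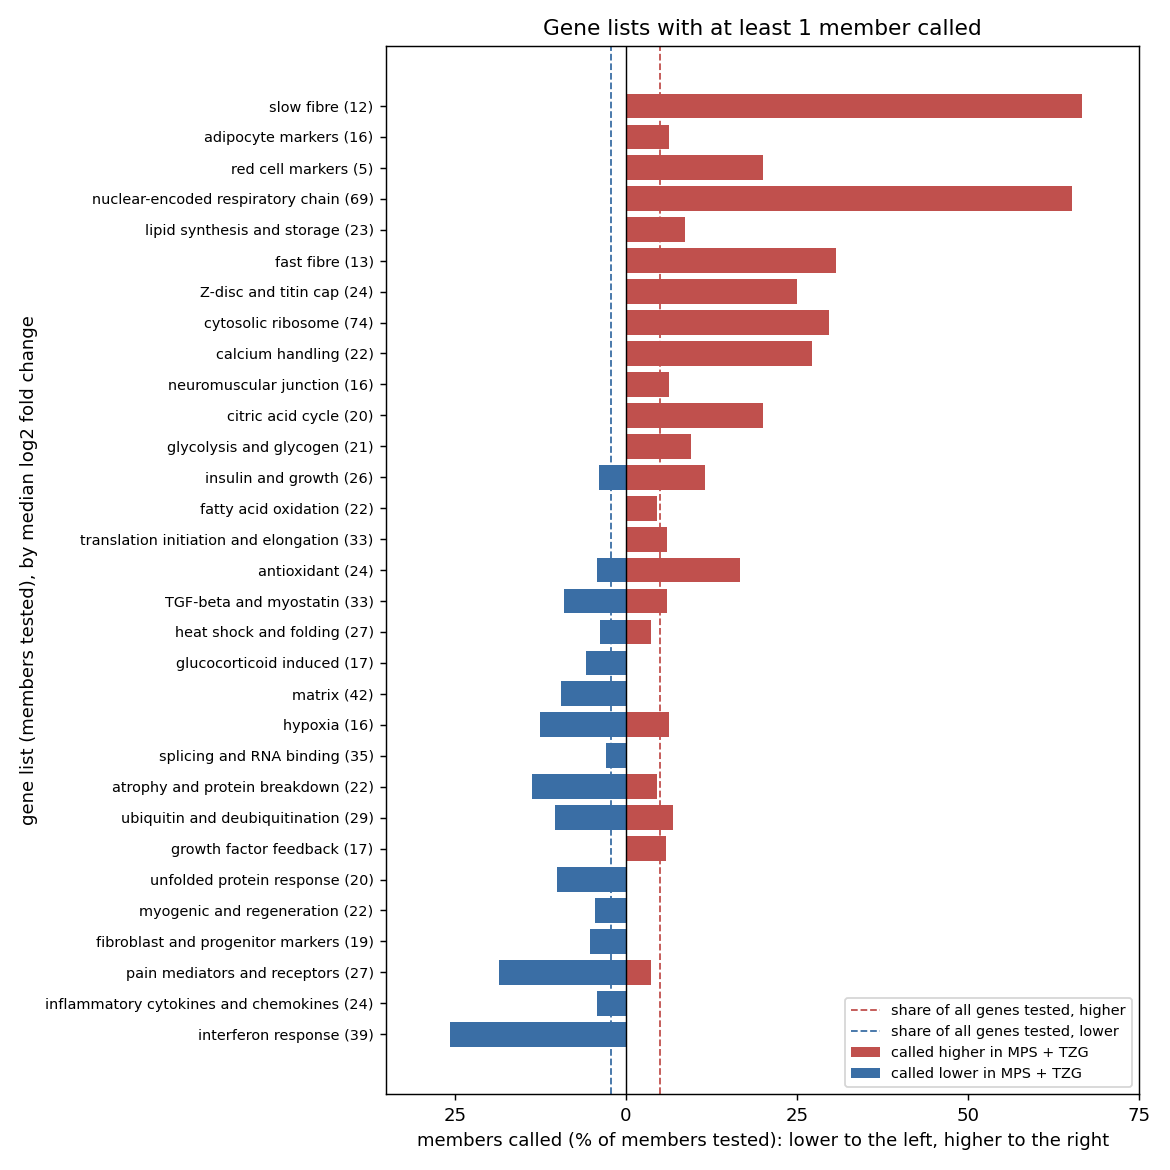
Share of tested members called higher (right, red) or lower (left, blue) in the pooled libraries for each gene list with at least 1 call, with the number tested in brackets and lists ordered by median log2 fold change. Dashed lines mark the shares over all genes tested, 4.96% higher and 2.12% lower; the respiratory chain reached 65.2% higher and the interferon list 25.6% lower.

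Markers of inflammation and of most other cell types had few or no calls. Of 47 lists, 16 had 0 members called, among them 8 of 11 lists of cell markers, antigen presentation (0 of 21, median -0.56) and the NF-kB pathway (0 of 24, median -0.20). Over all genes tested 7.08% were called. The lists with 0 calls, here and above, had at most 30 members tested, so their 0 calls say little about them. Of the antigen presentation genes 19 of 21 had negative fold changes, and without scaling factors 8 of them and 5 of the NF-kB genes were called lower, where 14.2% of all genes were. In the list of inflammatory cytokines and chemokines 1 of 24 was called lower (4.17%, against 2.12% of all genes tested), the death ligand Tnfsf10. It had 12.1 to 35.8 normalised CPM in the pooled libraries, against 40.7 to 56.3 in NC (-1.15 ± 0.27, edgeR adjusted p = 0.0301). Among 5 red cell markers Hbb, a haemoglobin beta chain, was called higher at 1.32 ± 0.31, with TZG 43 at 1319 normalised CPM, the other pooled libraries at 552.7 to 619.8 and NC at 176.7 to 358.1. Dgat2, which completes fat synthesis, had 13.4 to 65.3 normalised CPM in the pooled libraries, highest in TZG 43, against 8.82 to 11.5 in NC (1.6 ± 0.39). Of 16 adipocyte markers, 15 had positive fold changes, with a median of 1.32. The 1 called was the fat cell hormone Retn (4.62 ± 1.09), a share of 6.25%, near the 4.96% of all genes called higher. Retn had 40.8 normalised CPM in TZG 43 and 2.36 to 6.42 in the other pooled libraries, against 0 to 1.12 in NC. The summed level of the adipocyte markers was 1020 to 6039 normalised CPM in the pooled libraries, highest in MPS 11, and 981.6 to 3196 in NC. Their part in the Dgat2 values was not tested. In the neuromuscular junction list 1 of 16 was called higher (6.25%, near the 4.96% of all genes tested), the agrin receptor Lrp4 (0.99 ± 0.24). In the myogenic list 1 of 22 was called lower (4.55%, against 2.12%), the homeobox factor Six4 (-0.73 ± 0.16). With the slow fibre level as a covariate Lrp4 had 0.25 ± 0.24 and Six4 -0.61 ± 0.25. The call held in 2 of the 9 fits that left out 1 library for Lrp4 and in 5 for Six4.

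Within the pooled group, MPS 10 and 11 were set against the 3 TZG libraries in a fit with 3 groups. A single gene passed in edgeR (0.00771% of those tested), with 572 genes (4.41%) at an unadjusted p under 0.05. It was Scamp1, a membrane protein of recycling vesicles, which had 3.05 and 3.84 normalised CPM in MPS 10 and 11 and 31, 26.5 and 21.9 in TZG 26, 27 and 43, a log2 difference of -2.94 (edgeR adjusted p = 0.0103), while NC had 24.1 to 39. The TZG libraries overlapped NC and the MPS libraries lay far below both. Few calls in a comparison of 2 libraries with 3 do not show that the groups were alike. Taken separately against the same NC libraries, MPS gave 1181 calls (8.81% of 13411 genes tested) and TZG 3 (0.023% of 13057).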

How the data were processed

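RNA was extracted from rat muscle with an RNeasy kit and sequenced after a SMARTER mRNA-Seq library preparation, per the labels' protocols. The authors deposited whole-number counts per Ensembl gene, per the file headers, in 2 tables of the same content, of which 1 was used; it lists 32883 features. The authors also deposited FPKM values and their own comparisons, per the file headers, which were not used here. Fastp, HISAT2, StringTie 1.3.3b and edgeR 3.30.3 are named in the submitters' processing notes, while their roles, the genome build and the handling of shared reads or strand are not given in the sources used here. Total counts of 12616160 to 18179144 in the 9 libraries set the precision.

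The members and the gene lists were chosen with earlier results of these data known. Groups follow the labels, and MPS 14 was left out by its Acta1 level. Counts were tested with edgeR 4.0.16 in R 4.3.3 (filterByExpr, TMM factors, quasi-likelihood fit with 2 groups, two-sided), and p-values were adjusted by Benjamini-Hochberg over every gene tested. MPS and TZG coefficients came from a 3-group fit. Standard errors were taken from the F statistic. No set test was run, and lists are described by counts and medians. Of 1154 distinct genes in 47 lists, 1101 matched a name in the table; for the 291 names on more than 1 feature, the feature with most counts was taken.

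Named genes were those shifted alike with a mean of at least 1 CPM, a proper name and no place in the fibre or mitochondrial genome lists: in each direction the 15 with the largest change and 5 by smallest p, with up to 4 of the smallest p per list and the gene called between MPS and TZG. Not every gene this rule takes is described. Alternatives were RLE or no scaling factors, other filters, protein-coding or nuclear genes only, DESeq2 1.42.0, limma-voom (limma 3.58.1), a 3-group fit, the slow fibre level as a covariate, length offsets, a fold change limit, MPS 14 added, MPS or TZG alone, and each library left out; 6 combinations with DESeq2 or limma-voom were chosen after seeing the data. Scripts were tested on simulated data. Figures used Python 3.11.15 and matplotlib 3.10.9.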

Additional observations from a re-analysis of the deposited data

Results flagged for a closer look

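Among 194 sets of values (each gene given in the text, in the pooled libraries and in NC), 21 held a library far from the rest of its group, by a gap that chance gives in about 1 of 20 sets. NC 7 was that library in 7 of them, TZG 43 in 6 and TZG 26 in 3. All values are normalised CPM.

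In the pooled group, TZG 43 stood apart with 315.2 for Nmrk2, 1.75 for Gria2, 143.8 for Akt1, 1319 for Hbb, 40.8 for Retn and 88.8 for Orai1, the last below the others. TZG 26 stood apart with 96.4 for Slc12a2, 27.6 for Nid2 and 17015 for Tnni2, TZG 27 with 4.77 for Socs3, a feedback inhibitor of cytokine signals whose other pooled values were 1.89 to 2.44, and MPS 10 with 37.6 for Mrpl14, below the others.

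In NC, NC 7 stood apart with 34.1 for Slc39a10, 215 for Slc12a2, 82.7 for Ltbp1, 118.5 for Plaa, 2.69 for Myh7, 322.8 for Ube2g1 and 95.3 for Usp14, a deubiquitinase with 50.3 to 55.2 in the other NC libraries. NC 4 stood apart with 44.3 for Morc3 and 71 for Mpc2, and NC 5 with 4.03 for Gria3.

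Scamp1 differed between MPS and TZG in its change against NC, by -2.94 on the log2 scale in the tested difference of the coefficients.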

How the results depend on the processing

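The count of 918 genes called, and of 817 shifted alike, stayed within 1.5 times under RLE factors, without the mitochondrial genome, in protein-coding genes only, at a mean of 5 CPM, in limma-voom and in the 3-group fit. Outside that range, the genes called and those shifted alike were 2032 and 1680 without scaling factors. In that fit 90 of those shifted alike were higher and 1590 lower, against 571 and 246 with TMM factors. Of the 817 genes, 403 stayed called there. The counts were 582 and 516 without a filter, 1833 and 1311 in DESeq2, and 587 and 532 with length offsets. They were 392 and 323 among genes that moved by 1 or more on the log2 scale. Both counts were 0 with the slow fibre covariate and with MPS 14 added, in edgeR and in limma-voom; DESeq2 gave 519 and 359 with the covariate and 219 and 171 with MPS 14 (smallest edgeR adjusted p with MPS 14 0.118, 1200 genes at an unadjusted p under 0.05). TZG alone gave 3 calls and MPS alone 1181. Leaving out 1 library gave 0 (NC 7) to 2041 (TZG 43) genes called and 0 to 1777 shifted alike; without NC 7, limma-voom gave 173 and 171. The single gene that differed between MPS and TZG became 0 with the covariate or with MPS 14, and 0 to 2 genes when 1 library was left out. Of 96 genes called and given in the text, 96 kept their call in DESeq2, 88 in limma-voom, 76 without scaling factors and 70 with length offsets, and 0 without NC 7 in edgeR. In edgeR 69 of the 96 kept it with MPS alone, and 0 with TZG alone, with the slow fibre covariate or with MPS 14 added. The combinations of DESeq2 or limma-voom with a second change were chosen after seeing the data. The cause of these differences was not tested. Of the log2 fold changes given, 3 reversed, all with MPS 14 added: Gria3 to 0.02 (0.00 in DESeq2), Hif1a to 0.25 in both and Parp14 to 0.13 in both. No paired analysis was possible because no 2 samples share a replicate number. Few libraries per group, the low counts of genes near 1 CPM and groups that differ in scaling factor, length relation and slow fibre level limit every comparison.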

Other observations

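MPS 14, the library left out for its low Acta1 level, did not share the pattern. Of the 571 genes higher alike it lay above all NC libraries in 113 and below all of them in 382, and of the 246 genes lower alike it lay below all NC libraries in 98 and above all of them in 113. Over all genes tested it was above NC in 40.4% and below NC in 40.9%. Its median log2 ratio to the NC mean was -0.98 for the genes higher alike and 0.13 for those lower alike. Actn2 had 16.6 normalised CPM in MPS 14, against 73.6 to 156.7 in NC, and Ifi44l had 29.9, against 4.03 to 8.58 in NC. These MPS 14 values were scaled with all 10 libraries and the NC ranges with 9, so they are not on exactly the same scale.

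Some genes named by the rule belong to none of the groups described. Pcbp4, a protein that binds cytosine-rich RNA, had 26.6 to 39.1 normalised CPM in the pooled libraries, against 10.4 to 15.9 in NC, a log2 fold change of 1.38 ± 0.17 (edgeR adjusted p = 0.0114). Doc2g, of a family of calcium-binding vesicle proteins, had 6.15 to 10 normalised CPM in the pooled libraries, against 0.59 to 3.58 in NC (1.85 ± 0.40). Tdrkh, a Tudor domain protein of the small RNA pathway in germ cells, had 0.5 to 1.14 normalised CPM in the pooled libraries, against 2.71 to 3.14 in NC (-1.83 ± 0.32), and Gal3st4, a sulfotransferase for galactose, had 0.143 to 0.611, against 1.19 to 2.16 in NC (-1.81 ± 0.44).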
